A study of Homo sapiens with 12 samples.

Results

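The DNA replication machinery is described here by 47 genes in 3 human lymphoma cell lines treated with a BET inhibitor, an IRAK kinase inhibitor or both. The members are the genes named for origin licensing, the MCM2-7 helicase, its activation, the replicative polymerases and primase, the sliding clamp and its loader, RPA, FEN1 and LIG1, and 4 genes of S-phase entry and histone mRNA (SLBP, CCNE1, CCNE2 and E2F1). They were matched to the arrays by symbol and gene identifier, with earlier results of these data known, and each was read from its array probe set with the highest mean. Of 18239 genes with a probe set of their own 13120 passed the filter on low values and were tested, and all 47 members were among them.

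A chromosome is copied in each cell cycle by a machine that is built in steps. In G1 phase the origin recognition complex with CDC6 and CDT1 loads the ring-shaped MCM2-7 helicase at origins. At the start of S phase the kinase CDC7 with its activator DBF4, and cyclin-dependent kinases, bring CDC45 and the GINS complex onto that ring, and polymerases alpha, delta and epsilon then copy the DNA. Many of these genes are transcribed through E2F factors as cells enter S phase, and dividing lymphoma cells express them.

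The lines are OCI-LY3 as replicate 1, OCI-HBL1 as replicate 2 and OCI-LY10 as replicate 3. All are established lines of ABC-DLBCL, the activated B cell-like subtype of diffuse large B cell lymphoma, a tumour that depends on chronic NF-kB signalling. RNA from each line was hybridised once for each of 4 treatments, so that n = 3 lines a group and 12 arrays in all. Control cells carry the label time 24 h and no further description. CPI203, which keeps BET proteins from binding acetylated histones, was given at 500 nM with a label time of 24 h. An inhibitor of IRAK kinases whose chemical name is not stated (IRAKi) was given at 50 µM with a label time of 6 h, and Combo cells received both doses with a label time of 24 h. The protocol gives 18 h for CPI203 and 6 h for the IRAK inhibitor, so treatment and label time cannot be told apart wherever IRAKi alone is compared with another group. Because the replicates are 3 different lines, the p-values measure the spread between these samples only.

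Values are log2 levels, so a difference of 1 is a doubling. Array medians lay between 4.64 and 4.74, and pairs of arrays correlated at 0.923 to 0.991. The OCI-LY10 IRAKi array read its non-specific control probe sets at 4.00, against 3.64 to 3.79 elsewhere. The 5 B cell markers analysed had means between 6.92 and 12.26. All 4 markers of activated B cells and plasmablasts had means of 9.08 to 12.4, although PRDM1 read only 5.62 to 5.98 in OCI-HBL1. Summed over its 5 genes, the B cell list ranged from 47.01 to 48.13 in Control and from 44.17 to 47.03 in Combo. Means of T cell, monocyte and fibroblast markers were between 3.70 and 4.37, near the filter level of 4.20, while EPCAM reached 6.92 in OCI-HBL1 and KRT8 6.82 in OCI-LY10. RNA spiked into each sample read higher than in Control, by 0.31 ± 0.17 in the CPI203 samples, 0.23 ± 0.04 in the IRAKi samples and 0.48 ± 0.26 in the Combo samples (mean log2 difference and SD, n = 3). On a scale set by these spike-ins the median gene changed by -0.30, -0.23 and -0.49 in the 3 treatments, and the part of this shift, or of the markers, in the results was not tested.

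With both inhibitors together, the replication genes that passed the test mostly fell, and a small set rose. In Combo against Control 20 of the 47 members fell and 4 rose, which is 42.6% and 8.51% of them. Among all 13120 genes tested 32.1% were called, 16.7% as fallen and 15.4% as risen. With a stricter filter on low values, at the 60th percentile, 45.3% of all genes were called, and the 24 members were still called. POLE2, GINS2, POLA2, MCM2 and PRIM1 had the largest falls, each past 2-fold, and ORC6, DBF4, GINS4 and SLBP were the genes that rose. The members' median log2 change was -0.22, while that of all genes was -0.0031. Calls were made at an adjusted p under 0.05 in a fit over every gene tested, with the cell line as a term. These arrays were made from whole cultures, so fewer cells that transcribe a gene and less RNA per cell cannot be told apart.

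How many members were called depended on the lines and on the scale. With OCI-HBL1 left out 22 members were called in Combo, but only 8 with OCI-LY3 left out and 9 with OCI-LY10 left out. The share of all genes called in those fits was 26.1%, 15.8% and 17%, against 32.1% with every line, so the calls of the whole set dropped as well. The 7 called in all 3 of these fits were GINS1, GINS3, MCM2, MCM3, ORC6, POLD3 and POLE2. After scaling to the spike-ins 31 members were called as fallen and none as risen, and the share of all genes called in either direction went from 32.1% to 46.9%. The median change of all genes on that scale was -0.487, and their share called as fallen was not counted. The same 20 that fell on the deposited scale were among the 31, while ORC6 stood at 0.34, DBF4 at 0.08, GINS4 at -0.025 and SLBP at -0.143.

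**Figure D1:**
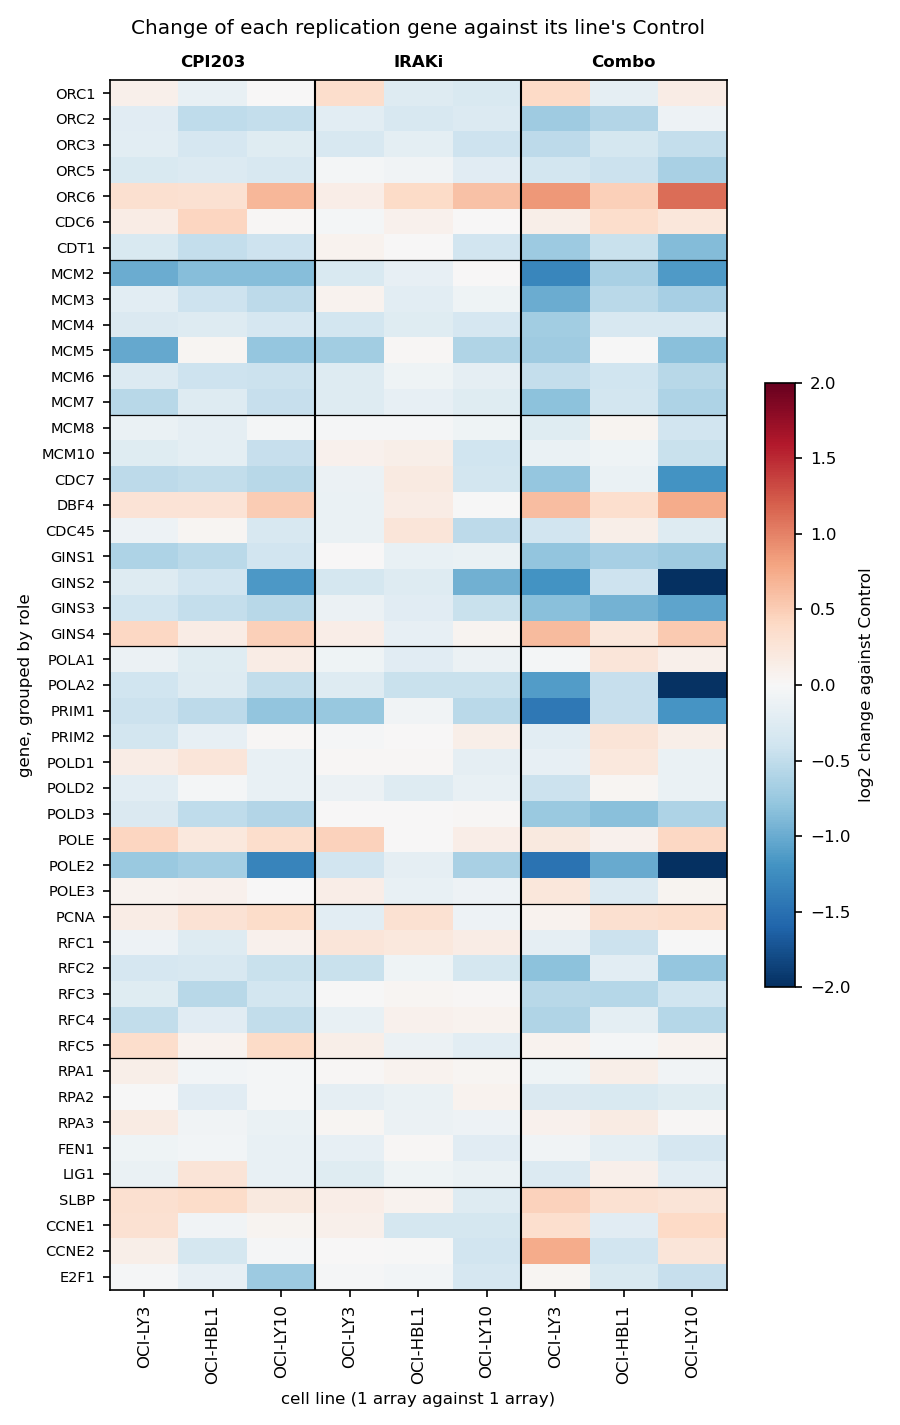
The map shows the log2 change of each of the 47 members against the Control of the same line (1 array against 1 array), in columns for CPI203, IRAKi and Combo with the lines OCI-LY3, OCI-HBL1 and OCI-LY10 in each. Blue is lower and red is higher on the deposited scale. The bluest cells are those of POLE2, GINS2 and POLA2 in OCI-LY10 with Combo, at -2.02, -1.996 and -1.97. ORC6 is red in all 9 cells. Scaling to the spike-ins, not drawn, leaves the mean Combo change of ORC6 above 0 and takes those of GINS4 and SLBP below it.

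CPI203 alone lowered a smaller set. In CPI203 against Control 8 members fell and none rose, or 17% of the 47, where 13.1% of all genes were called, 6.21% as fallen and 6.92% as risen. With the filter at the 60th percentile 22.7% of all genes were called, and these 8 members were still called. The 8 were MCM2, MCM6 and MCM7 of the helicase, GINS1 and GINS3, the polymerase subunits POLE2 and POLD3, and the clamp loader gene RFC3. The members' median was -0.17, where that of all genes was 0.0081, and 35 of the 47 changes were below 0. Without OCI-LY3 or without OCI-LY10 none of the members was called, and without OCI-HBL1 3 were, where 1.65%, 2.15% and 5.49% of all genes were called. A model that ignores the cell line called none with CPI203 and 3 with Combo, and 0.0305% and 3.54% of all genes.

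IRAKi alone moved no member past the test. None of the 47 was called, against 0.168% of all genes, and 7 members (14.9%) had an unadjusted p below 0.05. Among all 13120 genes 2018 did (15.4%), so the members' share was near that of all genes. Those 7 were ORC3, ORC6, MCM4, MCM5, GINS3, PRIM1 and POLE2, of which ORC6 was positive at 0.37 ± 0.14 (log2 change ± SE) and the others negative, between -0.27 for GINS3 and -0.46 for PRIM1. The median over the members was -0.10. Each comparison with Control uses the same 3 Control arrays, so the values of CPI203, IRAKi and Combo are given side by side and not as independent evidence.

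To set these changes beside regulatory sequence, the 250 bases before each annotated start were searched on both strands for 4 words of the E2F consensus: TTTCCCGC, TTTCGCGC, TTTGCCGC and TTTGGCGC, which may overlap each other. Sequences are RefSeq's, on GRCh38.p14. Of the 40 members matched in RefSeq's promoter table, at least 1 word was present in 14 (35%), against 928 of 27305 genes (3.4%) in the whole table. By single windows this was 14 of 50 (28%) against 979 of 35116 (2.79%). MCM4, MCM5, GINS4, POLD3, RPA2, RPA3 and CCNE2 were not matched. Among members that fell in Combo 9 of 18 had a word, among those that rose 0 of 3, and among those not called 5 of 19. The same shares over all genes tested, or over all that fell, rose or were not called, were not counted. A match describes letters only, and the genes with a word did not all move alike. In the 5 windows below the words are in capitals, and the last base lies next to the start. MCM6 (chr2:135876444-135876693, minus strand) is shown because it fell and holds the words as overlapping pairs. GINS2 (chr16:85688955-85689204, minus strand) fell and has 1 word, while PCNA (chr20:5126623-5126872, minus strand, the first of 2 starts) has 1 word and was not called. POLE2 (chr14:49688215-49688464, minus strand) and ORC6 (chr16:46689409-46689658, plus strand) had the largest fall and the largest rise, and neither window holds a word.
MCM6: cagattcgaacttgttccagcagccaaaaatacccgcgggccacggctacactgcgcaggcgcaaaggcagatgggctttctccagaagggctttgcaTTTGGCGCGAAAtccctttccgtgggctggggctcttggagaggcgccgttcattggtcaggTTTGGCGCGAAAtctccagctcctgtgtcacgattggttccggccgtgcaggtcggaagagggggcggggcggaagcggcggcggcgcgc
GINS2: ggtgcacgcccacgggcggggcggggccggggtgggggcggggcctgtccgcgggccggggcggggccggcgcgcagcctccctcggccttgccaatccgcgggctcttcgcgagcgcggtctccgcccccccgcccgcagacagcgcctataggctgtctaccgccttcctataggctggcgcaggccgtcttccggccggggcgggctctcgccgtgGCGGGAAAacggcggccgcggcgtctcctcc
PCNA: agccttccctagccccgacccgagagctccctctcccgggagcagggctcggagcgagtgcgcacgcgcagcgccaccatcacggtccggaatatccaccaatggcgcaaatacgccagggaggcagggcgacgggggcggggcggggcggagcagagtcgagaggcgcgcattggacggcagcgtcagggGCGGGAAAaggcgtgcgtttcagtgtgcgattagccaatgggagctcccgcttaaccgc
POLE2: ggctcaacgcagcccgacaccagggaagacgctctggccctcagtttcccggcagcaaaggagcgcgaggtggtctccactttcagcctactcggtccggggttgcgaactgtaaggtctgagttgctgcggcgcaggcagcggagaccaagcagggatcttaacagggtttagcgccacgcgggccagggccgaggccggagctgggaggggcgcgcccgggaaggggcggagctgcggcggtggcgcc
ORC6: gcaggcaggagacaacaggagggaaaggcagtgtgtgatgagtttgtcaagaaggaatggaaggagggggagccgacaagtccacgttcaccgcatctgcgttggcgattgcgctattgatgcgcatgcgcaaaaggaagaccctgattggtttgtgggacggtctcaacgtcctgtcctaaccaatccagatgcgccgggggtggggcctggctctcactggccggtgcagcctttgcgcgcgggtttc
The 4 word positions of MCM6 lay from 152 to 86 bases before the start, that of GINS2 at 31 and that of PCNA at 59.

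**Figure D2:**
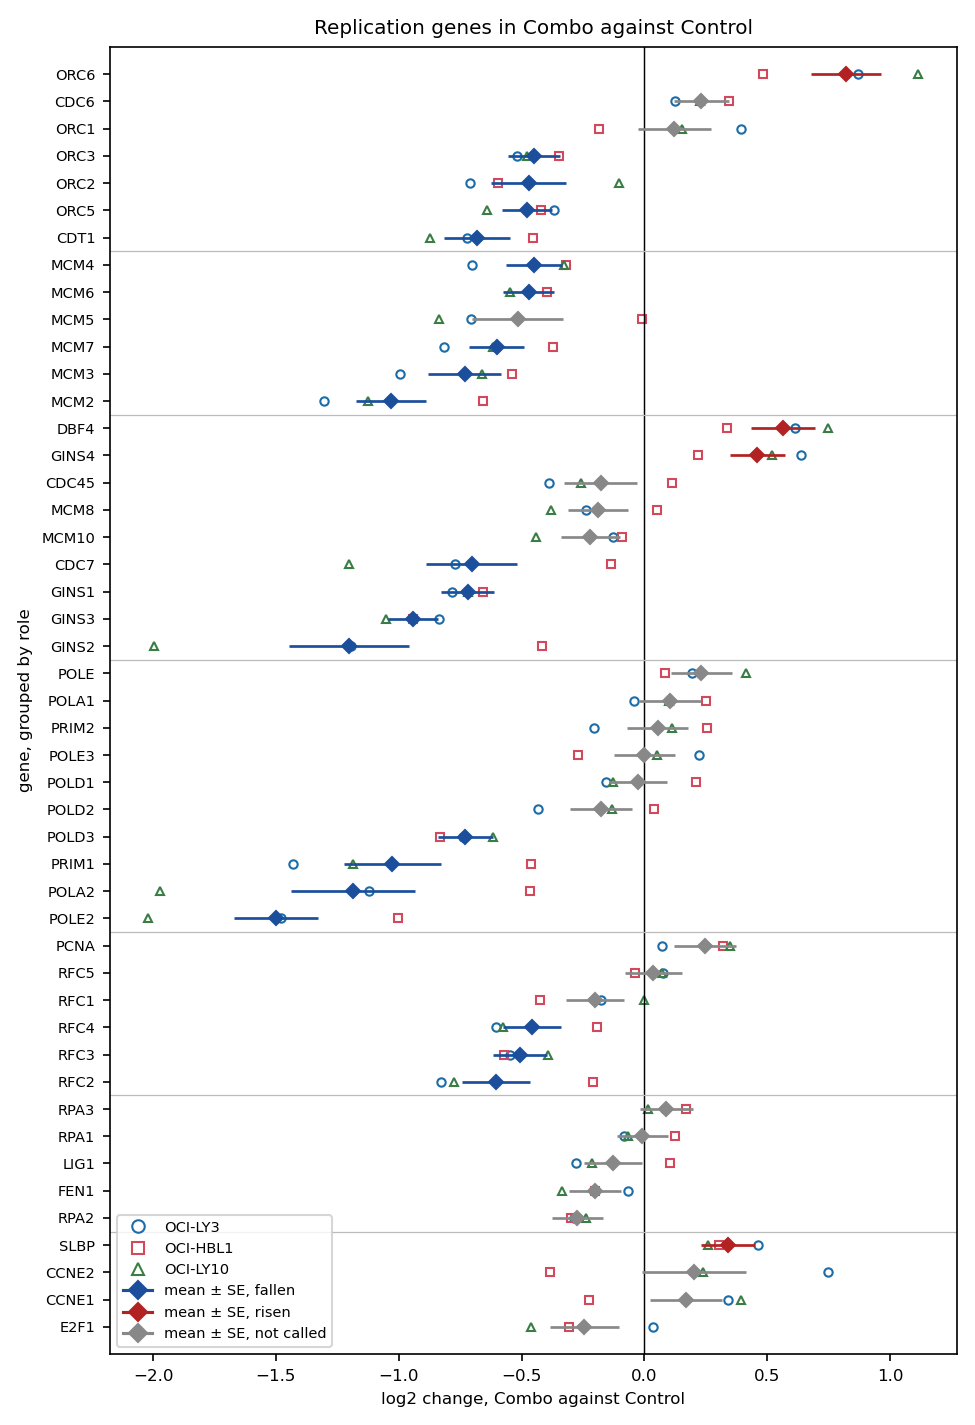
Each row is a member, grouped by role from origin licensing (top) to S-phase entry (bottom), and the axis is its log2 change in Combo against Control. Open symbols are single lines, 1 array against 1 array. Diamonds with bars are the mean of 3 lines ± SE of the fit, blue where the gene fell, red where it rose and grey where it was not called. ORC6 at 0.82 and POLE2 at -1.5 mark the ends, and the red symbols of GINS4 and SLBP would lie below 0 after scaling to the spike-ins.

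Origin licensing split within one complex. Of its 7 genes 4 fell in Combo (ORC2, ORC3, ORC5 and the MCM loader CDT1), and ORC6 rose. ORC4, a further subunit of the complex that is counted among the other replication factors below, rose as well. Its change on the deposited scale was 0.435 in Combo (adjusted p = 0.0294) and 0.46 with CPI203 (adjusted p = 0.0464). In the order OCI-LY3, OCI-HBL1 and OCI-LY10, ORC6 read 9.66, 9.85 and 9.38 in Control, 9.98, 10.15 and 10.04 with CPI203, 9.80, 10.22 and 9.97 with IRAKi, and 10.53, 10.33 and 10.50 with Combo. All 3 Combo arrays lay above all 3 Control arrays, and OCI-LY10 went from the lowest Control level to nearly the highest Combo level. ORC6, the smallest and most loosely held subunit of the origin recognition complex, rose by 0.82 ± 0.14 (log2, SE, n = 3, adjusted p = 0.00218), or 1.77-fold, a change that was not called after scaling to the spike-ins. CDT1 fell by 0.68 ± 0.13 (log2, SE, n = 3, adjusted p = 0.00393), ORC5 by 0.48, ORC2 by 0.47 and ORC3 by 0.45. The changes of ORC1, the ATPase subunit, and CDC6, the partner of CDT1 in loading, were 0.12 ± 0.15 and 0.23 ± 0.11 and did not pass the test. With CPI203 none of the 7 was called, and the values nearest the threshold were those of ORC6 (0.43, adjusted p = 0.0798) and CDT1 (-0.40, adjusted p = 0.0798).

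All 6 subunits of the MCM2-7 ring had negative mean changes in every comparison with Control, and 5 of them fell in Combo. MCM2 read 10.30, 10.50 and 9.97 in Control, 9.31, 9.65 and 9.12 with CPI203, 9.99, 10.33 and 9.97 with IRAKi, and 8.99, 9.85 and 8.84 with Combo. Its CPI203 and Combo arrays were all below its Control arrays, and IRAKi left OCI-LY10 at the Control level. MCM2 fell by 0.90 ± 0.14 (log2, SE, n = 3, adjusted p = 0.00543) with CPI203 and by 1.03 ± 0.14 (log2, SE, n = 3, adjusted p = 0.000717) with Combo, 1.86-fold and 2.04-fold. MCM3 read 10.93, 11.44 and 10.17 in Control, 10.72, 11.02 and 9.64 with CPI203, 10.99, 11.23 and 10.09 with IRAKi, and 9.93, 10.90 and 9.51 with Combo. Every Combo array was the lowest of its line, though the groups overlapped because the lines differed, and MCM3 fell by 0.73 ± 0.15 (log2, SE, n = 3, adjusted p = 0.00468). MCM7 read 12.11, 12.50 and 12.49 in Control, 11.55, 12.25 and 12.03 with CPI203, 11.85, 12.34 and 12.24 with IRAKi, and 11.29, 12.13 and 11.87 with Combo. MCM7 fell by 0.43 ± 0.11 (log2, SE, n = 3, adjusted p = 0.0366) with CPI203 and by 0.60 ± 0.11 (log2, SE, n = 3, adjusted p = 0.00309) with Combo, and its groups overlapped.

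MCM4 and MCM6 moved less. MCM4 read 10.40, 10.60 and 9.21 in Control, 10.12, 10.34 and 8.88 with CPI203, 10.03, 10.36 and 8.87 with IRAKi, and 9.70, 10.28 and 8.88 with Combo, so that OCI-LY10 was below the other lines under every treatment. It fell by 0.45 ± 0.12 (log2, SE, n = 3, adjusted p = 0.0147) with Combo, while -0.29 with CPI203 did not pass (adjusted p = 0.13). MCM6 read 8.93, 10.47 and 10.08 in Control, 8.65, 10.06 and 9.66 with CPI203, 8.67, 10.39 and 9.90 with IRAKi, and 8.46, 10.08 and 9.54 with Combo. Here OCI-LY3 was the low line, and within each line the CPI203 and Combo arrays were below Control. MCM6 fell by 0.37 ± 0.10 (log2, SE, n = 3, adjusted p = 0.0434) with CPI203 and 0.47 ± 0.10 (log2, SE, n = 3, adjusted p = 0.00691) with Combo. MCM5 was the one subunit that was not called in Combo on the deposited scale. MCM5 read 9.31, 7.97 and 8.79 in Control, 8.29, 8.01 and 8.02 with CPI203, 8.62, 7.99 and 8.20 with IRAKi, and 8.61, 7.96 and 7.96 with Combo. In OCI-HBL1 all 4 arrays lay between 7.96 and 8.01, whereas in the other lines each treated array was below Control. The mean change was -0.52 ± 0.19 in Combo (adjusted p = 0.0591) and -0.59 ± 0.19 with CPI203 (adjusted p = 0.0668), and the difference between the lines was not tested. After scaling to the spike-ins MCM5 was called in Combo, at -1.0 (adjusted p = 0.0021).

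Among the 9 genes of helicase activation and firing 4 fell in Combo (CDC7, GINS1, GINS2 and GINS3) and 2 rose (DBF4 and GINS4). GINS2 read 8.84, 9.77 and 8.67 in Control, 8.58, 9.38 and 7.52 with CPI203, 8.49, 9.52 and 7.71 with IRAKi, and 7.65, 9.35 and 6.67 with Combo. The fall was largest in OCI-LY10 at -1.996 and smallest in OCI-HBL1 at -0.42, and OCI-HBL1 with Combo stayed above the other lines' Controls. GINS2, 1 of the 4 subunits of the complex that completes the active helicase, fell by 1.20 ± 0.24 (log2, SE, n = 3, adjusted p = 0.00463), or 2.30-fold, and with CPI203 its -0.60 did not pass (adjusted p = 0.14). GINS3 read 8.45, 8.76 and 8.49 in Control, 8.06, 8.28 and 7.94 with CPI203, 8.33, 8.53 and 8.05 with IRAKi, and 7.62, 7.82 and 7.44 with Combo. Its Combo arrays (7.44 to 7.82) were all below its Control arrays (8.45 to 8.76), with changes of -0.84, -0.94 and -1.05 in the 3 lines. GINS3 fell by 0.48 ± 0.10 (log2, SE, n = 3, adjusted p = 0.0171) with CPI203 and by 0.94 ± 0.10 (log2, SE, n = 3, adjusted p = 0.000238) with Combo.

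GINS3 was also the only member called in Combo against CPI203, where it fell by 0.47 ± 0.10 (log2, SE, n = 3, adjusted p = 0.0356). Under spike-in scaling the change was larger, at -0.646, and did not pass (adjusted p = 0.09). The call was also lost under median centring, with only those groups in the fit, in a model that ignores the cell line and whenever a line was left out. GINS1 fell by 0.52 ± 0.11 (log2, SE, n = 3, adjusted p = 0.0158) with CPI203 and by 0.72 ± 0.11 (log2, SE, n = 3, adjusted p = 0.00103) with Combo. The fourth subunit went the other way. GINS4 read 8.89, 9.03 and 7.77 in Control, 9.31, 9.17 and 8.25 with CPI203, 9.03, 8.86 and 7.82 with IRAKi, and 9.53, 9.25 and 8.29 with Combo, so that each line's Combo array was above its Control. GINS4 rose by 0.46 ± 0.11 (log2, SE, n = 3, adjusted p = 0.0118) on the deposited scale and stood at -0.025 after scaling to the spike-ins.

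The kinase that fires origins was split in the same manner. DBF4, which binds and activates CDC7, read 9.34, 9.53 and 9.64 in Control, 9.62, 9.81 and 10.15 with CPI203, 9.21, 9.68 and 9.63 with IRAKi, and 9.95, 9.86 and 10.38 with Combo. All Combo arrays were above all Control arrays, and IRAKi arrays were at most 0.15 above their Controls. DBF4 rose by 0.57 ± 0.13 (log2, SE, n = 3, adjusted p = 0.00903) in Combo, with 0.36 at CPI203 (adjusted p = 0.107), and was not called after spike-in scaling. CDC7, the catalytic subunit, fell by 0.70 ± 0.18 (log2, SE, n = 3, adjusted p = 0.0163), with OCI-LY3 at -0.77, OCI-HBL1 at -0.14 and OCI-LY10 at -1.20. The other probe sets of CDC7 changed less in Combo, by -0.05 and -0.36, without a test. MCM10, CDC45 and MCM8, a helicase of recombination rather than of the replication ring, were not called against Control on the deposited scale. Their Combo changes were -0.22, -0.18 and -0.19. After scaling to the spike-ins all were called as fallen in Combo, at -0.704, -0.662 and -0.672 (adjusted p = 0.0116, 0.0263 and 0.02). The other MCM8 probe sets changed by 0.18, 0.24, 0.19 and -0.29 in Combo, without a test.

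Of the 10 polymerase and primase genes 4 fell in Combo (POLE2, POLA2, PRIM1 and POLD3) and none rose. The 4 include the catalytic subunit of primase, PRIM1, but not those of polymerases alpha, delta and epsilon. POLE2, the second subunit of the leading-strand polymerase epsilon, read 8.85, 8.90 and 7.62 in Control, 8.12, 8.23 and 6.30 with CPI203, 8.48, 8.72 and 6.98 with IRAKi, and 7.37, 7.90 and 5.60 with Combo. OCI-LY10 with Combo was the lowest of the 12 arrays, and within each line the order was Control, IRAKi, CPI203 and Combo from high to low. POLE2 fell by 0.91 ± 0.17 (log2, SE, n = 3, adjusted p = 0.0103) with CPI203 and by 1.5 ± 0.17 (log2, SE, n = 3, adjusted p = 0.000282) with Combo, 1.88-fold and 2.83-fold. Its Combo call held without each line in turn. POLA2, the regulatory subunit of polymerase alpha, read 9.14, 8.74 and 8.57 in Control, 8.74, 8.48 and 8.08 with CPI203, 8.88, 8.29 and 8.13 with IRAKi, and 8.02, 8.27 and 6.60 with Combo. All Combo arrays were below all Control arrays, and the change within the line was -0.47 in OCI-HBL1 and -1.97 in OCI-LY10. POLA2 fell by 1.19 ± 0.25 (log2, SE, n = 3, adjusted p = 0.00595) with Combo, and its -0.38 with CPI203 did not pass (adjusted p = 0.365).

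PRIM1, the catalytic primase subunit that makes the RNA primers, read 8.70, 9.38 and 9.12 in Control, 8.27, 8.86 and 8.33 with CPI203, 7.95, 9.30 and 8.57 with IRAKi, and 7.27, 8.92 and 7.93 with Combo. Its Combo array was the lowest of the line in OCI-LY3 and OCI-LY10, and in OCI-HBL1 the CPI203 array was slightly lower. PRIM1 fell by 1.03 ± 0.20 (log2, SE, n = 3, adjusted p = 0.00347), or 2.04-fold, and stood at -0.58 with CPI203 (adjusted p = 0.0818). POLD3, an accessory subunit of the lagging-strand polymerase delta, read 9.17, 8.96 and 8.46 in Control, 8.89, 8.45 and 7.87 with CPI203, 9.18, 8.97 and 8.49 with IRAKi, and 8.43, 8.12 and 7.84 with Combo. The Combo arrays were all below the Control arrays, while each IRAKi array was within 0.03 of its Control in the probe set used. The other POLD3 sets changed by -0.37 and -0.29 with IRAKi and by -0.68 and -0.84 with Combo, without a test. POLD3 fell by 0.46 ± 0.11 (log2, SE, n = 3, adjusted p = 0.027) with CPI203 and by 0.73 ± 0.11 (log2, SE, n = 3, adjusted p = 0.00118) with Combo. The other 6 genes were not called on the deposited scale, among them the catalytic subunits POLE (0.23 ± 0.12), POLA1 (0.10 ± 0.13) and POLD1 (-0.025 ± 0.12). After scaling to the spike-ins POLD2 (-0.661) and POLE3 (-0.484) were called as fallen in Combo, with adjusted p of 0.0249 and 0.0482.

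Some genes whose products work in a shared complex were apart in their change with Combo. The pairs below were chosen after the values were seen, each as a gene that fell beside a partner that was not called as fallen, so the choice fixed the sign of the difference. Other partners moved alike, such as ORC2, ORC3 and ORC5, or RFC2, RFC3 and RFC4, all of which fell. Each difference is taken within a line and was not tested. A shift common to every gene of an array leaves such a difference as it is. POLE2 minus POLE was -1.73 ± 0.68 (mean and SD of 3 lines), POLA2 minus POLA1 -1.29 ± 0.70 and PRIM1 minus PRIM2 -1.08 ± 0.32. For POLD3 minus POLD1 it was -0.70 ± 0.30. CDC7 minus DBF4 was -1.27 ± 0.74, and GINS3 minus GINS4 was -1.40 ± 0.21. ORC5 minus ORC6 was -1.3 ± 0.43. The loaders CDT1 minus CDC6 gave -0.92 ± 0.16, GINS2 minus GINS4 -1.66 ± 0.95 and RFC2 minus RFC5 -0.64 ± 0.41. In all of these 10 pairs but POLD3 minus POLD1 and RFC2 minus RFC5 the difference was widest in OCI-LY10.

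**Figure D3:**
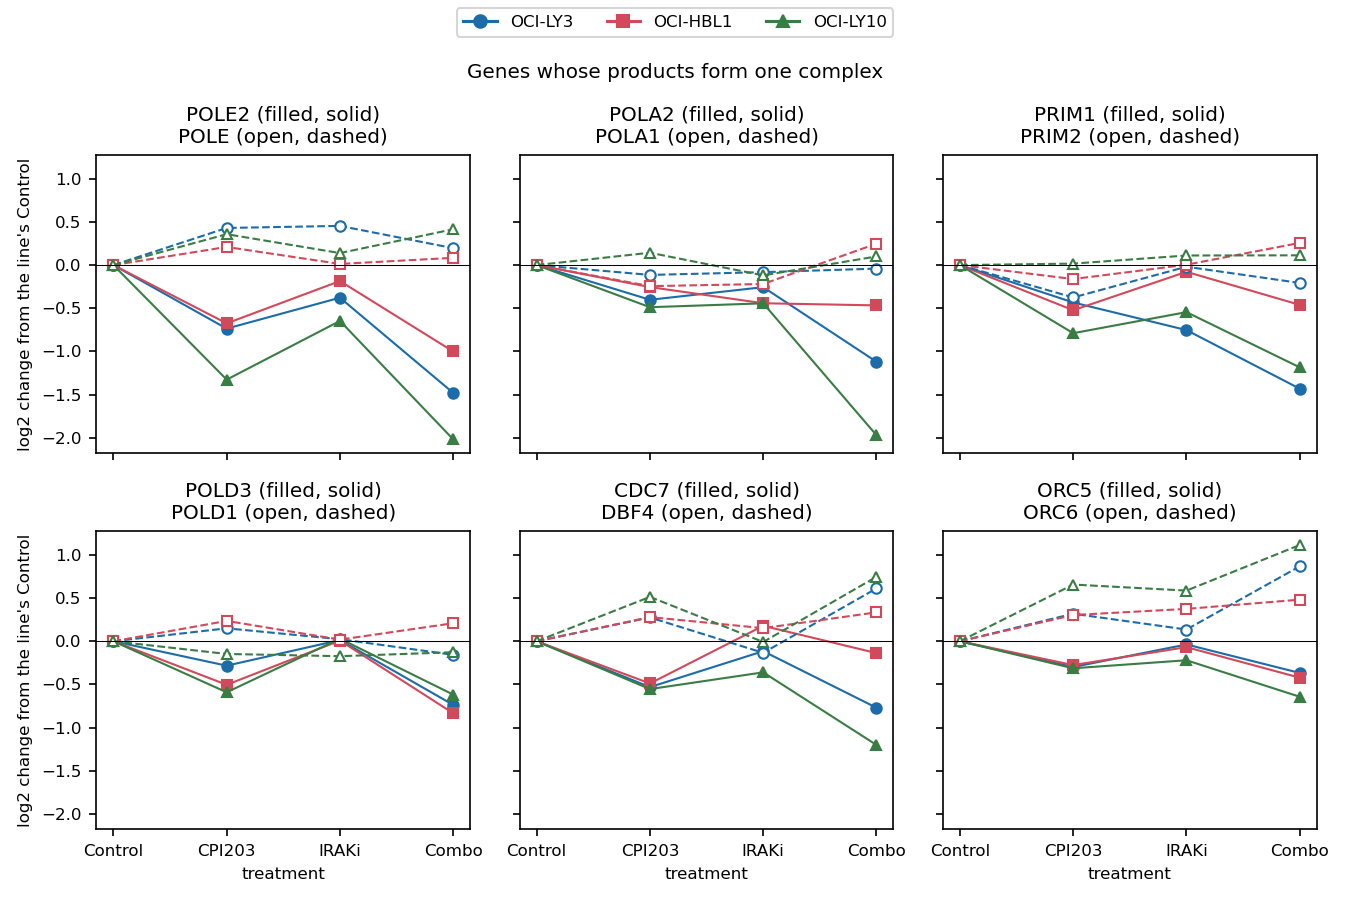
The 6 panels plot 6 pairs of genes of a shared complex, with the log2 change from the line's own Control on the vertical axis and the treatment on the horizontal axis. Filled symbols with solid lines are the first gene, open symbols with dashed lines the second, and colours are the lines. With Combo the POLE2 lines end between -2.02 and -1.001 and the POLE lines between 0.08 and 0.42. Each pair's vertical gap does not depend on how arrays are scaled to each other by a constant.

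Of the 6 clamp and clamp loader genes 3 fell in Combo (RFC2, RFC3 and RFC4) and none rose. PCNA, the ring that tethers polymerases to DNA, read 12.54, 12.17 and 11.81 in Control, 12.69, 12.46 and 12.17 with CPI203, 12.33, 12.48 and 11.71 with IRAKi, and 12.62, 12.49 and 12.16 with Combo. OCI-LY10 was lowest and OCI-LY3 highest among the Controls, and Combo arrays were above their own Controls by 0.07 to 0.35. Its changes of 0.26 ± 0.13 with CPI203 and 0.25 ± 0.13 with Combo did not pass (adjusted p = 0.209 and 0.174), and after spike-in scaling both were below 0, at -0.04 and -0.24. RFC2 fell by 0.60 ± 0.14 (log2, SE, n = 3, adjusted p = 0.00867), RFC3 by 0.51 and RFC4 by 0.46 with Combo. RFC3 also fell with CPI203 by 0.39 ± 0.11 (log2, SE, n = 3, adjusted p = 0.0459), but the mean of its 4 probe sets was 0.039. RFC1 and RFC5 stood at -0.20 ± 0.12 and 0.04 ± 0.12 in Combo. After scaling to the spike-ins RFC1 was called as fallen there (-0.685, adjusted p = 0.0108) and RFC5 was not (-0.448, adjusted p = 0.084).

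The genes that coat single strands and finish the lagging strand were not called on the deposited scale. RPA1, RPA2, RPA3, the flap nuclease FEN1 and the ligase LIG1 had Combo changes between -0.27 for RPA2 (adjusted p = 0.0752) and 0.09 for RPA3. With CPI203 they lay between -0.09 and 0.01. After scaling to the spike-ins RPA2 (-0.757), FEN1 (-0.685) and LIG1 (-0.613) were called as fallen in Combo, with adjusted p of 0.00856, 0.0103 and 0.0283.

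Of the 4 genes of S-phase entry and histone mRNA, SLBP alone was called on the deposited scale. SLBP, which binds the stem-loop of replication-dependent histone mRNAs, read 11.21, 10.36 and 10.90 in Control, 11.53, 10.73 and 11.09 with CPI203, 11.33, 10.43 and 10.64 with IRAKi, and 11.67, 10.67 and 11.16 with Combo. Each line's Combo array was above its Control, by 0.26 to 0.46, but the groups overlapped because OCI-LY3 lay above OCI-HBL1 throughout. SLBP rose by 0.34 ± 0.11 (log2, SE, n = 3, adjusted p = 0.04) on the deposited scale, stood at -0.143 after scaling to the spike-ins, and lost its call without any 1 of the lines. CCNE1, a cyclin that activates CDK2 at S-phase entry, read 9.66, 9.16 and 8.43 in Control, 9.96, 9.10 and 8.49 with CPI203, 9.75, 8.81 and 8.09 with IRAKi, and 10.00, 8.94 and 8.83 with Combo. CCNE2, its paralog, read 8.08, 7.90 and 8.25 in Control, 8.19, 7.55 and 8.23 with CPI203, 8.09, 7.90 and 7.86 with IRAKi, and 8.82, 7.52 and 8.49 with Combo. For both, Combo was above Control in OCI-LY3 and OCI-LY10 and below it in OCI-HBL1, and neither passed (0.17 ± 0.15 and 0.20 ± 0.21). E2F1, a transcription factor of this gene set, read 7.29, 6.84 and 6.51 in Control, 7.25, 6.68 and 5.79 with CPI203, 7.25, 6.79 and 6.18 with IRAKi, and 7.32, 6.54 and 6.05 with Combo. OCI-LY3 hardly moved, at 7.25 to 7.32, and the mean change of -0.24 ± 0.14 in Combo was not called, while after scaling to the spike-ins E2F1 was called at -0.728 (adjusted p = 0.0112).

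Combo was also compared with each single treatment. Against IRAKi, 13 members fell and 3 rose, or 27.7% and 6.38%, where 18.7% of all genes were called, 10.5% as fallen and 8.21% as risen. Against CPI203, only GINS3 fell and none rose, or 2.13% of members, where 4.66% of all genes were called, 2.71% as fallen and 1.96% as risen. With the filter at the 60th percentile 28.8% of all genes were called against IRAKi and 8.83% against CPI203. In the comparison with IRAKi the falls were led by POLE2 (-1.10 ± 0.17), MCM2 (-0.87 ± 0.14) and POLD3 (-0.75 ± 0.11), and the genes that rose were DBF4, GINS4 and SLBP. Leaving out OCI-LY3 left 1 member called there, OCI-HBL1 13 and OCI-LY10 3, where 4.01%, 13% and 5.56% of all genes were called. Leaving out the OCI-LY10 IRAKi array left 8 members and 11.3% of all genes. Spike-in scaling gave 0 risen and 15 fallen and median centring 5 and 8, with 17.5% and 20.5% of all genes called in either direction. Under spike-in scaling the median change of all genes in this comparison was -0.255. GINS2, POLA2, PRIM1 and POLE2 stood at -0.60, -0.80, -0.44 and -0.59 in Combo against CPI203 and did not pass (adjusted p from 0.0841 to 0.237).

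The interaction term, Combo minus CPI203 minus IRAKi plus Control, measures how far the joint change departs from the sum of the single ones. It holds the IRAKi arrays with a label time of 6 h, so such a departure and label time cannot be told apart. No member was called, against 0.00762% of all genes (1 gene), and no member had an unadjusted p below 0.05, as 1085 of all genes did (8.27%). The members ranged from -0.42 for POLA2 to 0.49 for MCM5, with a median of 0.02. Their SEs ran larger than for a simple comparison, at 0.36 for POLA2 and 0.20 for MCM2.

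Many members also differed in level between the lines, as did many of all genes tested. Each line is represented by 4 arrays under 4 treatments, so this comparison is of these lines as grown here. In OCI-LY3 against OCI-HBL1 10 members were higher and 16 lower, or 55.3% called, where 47.2% of all genes were called, 25.1% higher and 22.2% lower. In OCI-LY10 against OCI-HBL1 11 were higher and 20 lower, or 66%, against 48.5%, 22.8% and 25.8%. In OCI-LY3 against OCI-LY10 18 were higher and 14 lower, or 68.1%, against 46.6%, 26% and 20.6%. The first share was close to the background of all genes tested and the others were above it. With the filter at the 60th percentile 62%, 63.2% and 60.8% of all genes were called, so the gap to the background depended on the filter. After scaling to the spike-ins the splits of higher to lower were 4 to 15, 2 to 25 and 17 to 7. On that scale 37.6%, 46.8% and 38.2% of all genes were called in either direction. Median centring gave 15 to 18 for OCI-LY3 against OCI-LY10, with 49.1% of all genes called.

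Subunits of the helicase ring had different low lines. MCM6 was lower in OCI-LY3 than in OCI-HBL1 by 1.58 ± 0.09 (log2, SE, adjusted p = 6.43e-07), with ranges of 8.46 to 8.93 against 10.06 to 10.47. MCM4 was lower in OCI-LY10 than in OCI-HBL1 by 1.44 ± 0.10 (log2, SE, adjusted p = 2.21e-06) and MCM3 by 1.295 ± 0.13 (log2, SE, adjusted p = 2.57e-05). OCI-LY10 was also low in GINS2 (-1.86 ± 0.21 against OCI-HBL1), POLE2 (-1.81 ± 0.15) and GINS4 (-1.04 ± 0.10), and high in POLE (1.02 ± 0.11). OCI-LY3 had the highest CCNE1 (1.38 ± 0.13 over OCI-LY10), E2F1 (1.15 ± 0.12) and SLBP (0.89 ± 0.10 over OCI-HBL1), and the lowest POLD1 (-0.89 ± 0.10 against OCI-HBL1 and -0.99 ± 0.10 against OCI-LY10). RPA1, LIG1 and E2F1 were the 3 members (6.38%) whose 4-array ranges were apart in all 3 lines, which held for 7.1% of all genes. OCI-HBL1 held the highest mean of 18 members, OCI-LY3 of 16 and OCI-LY10 of 13.

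**Figure D4:**
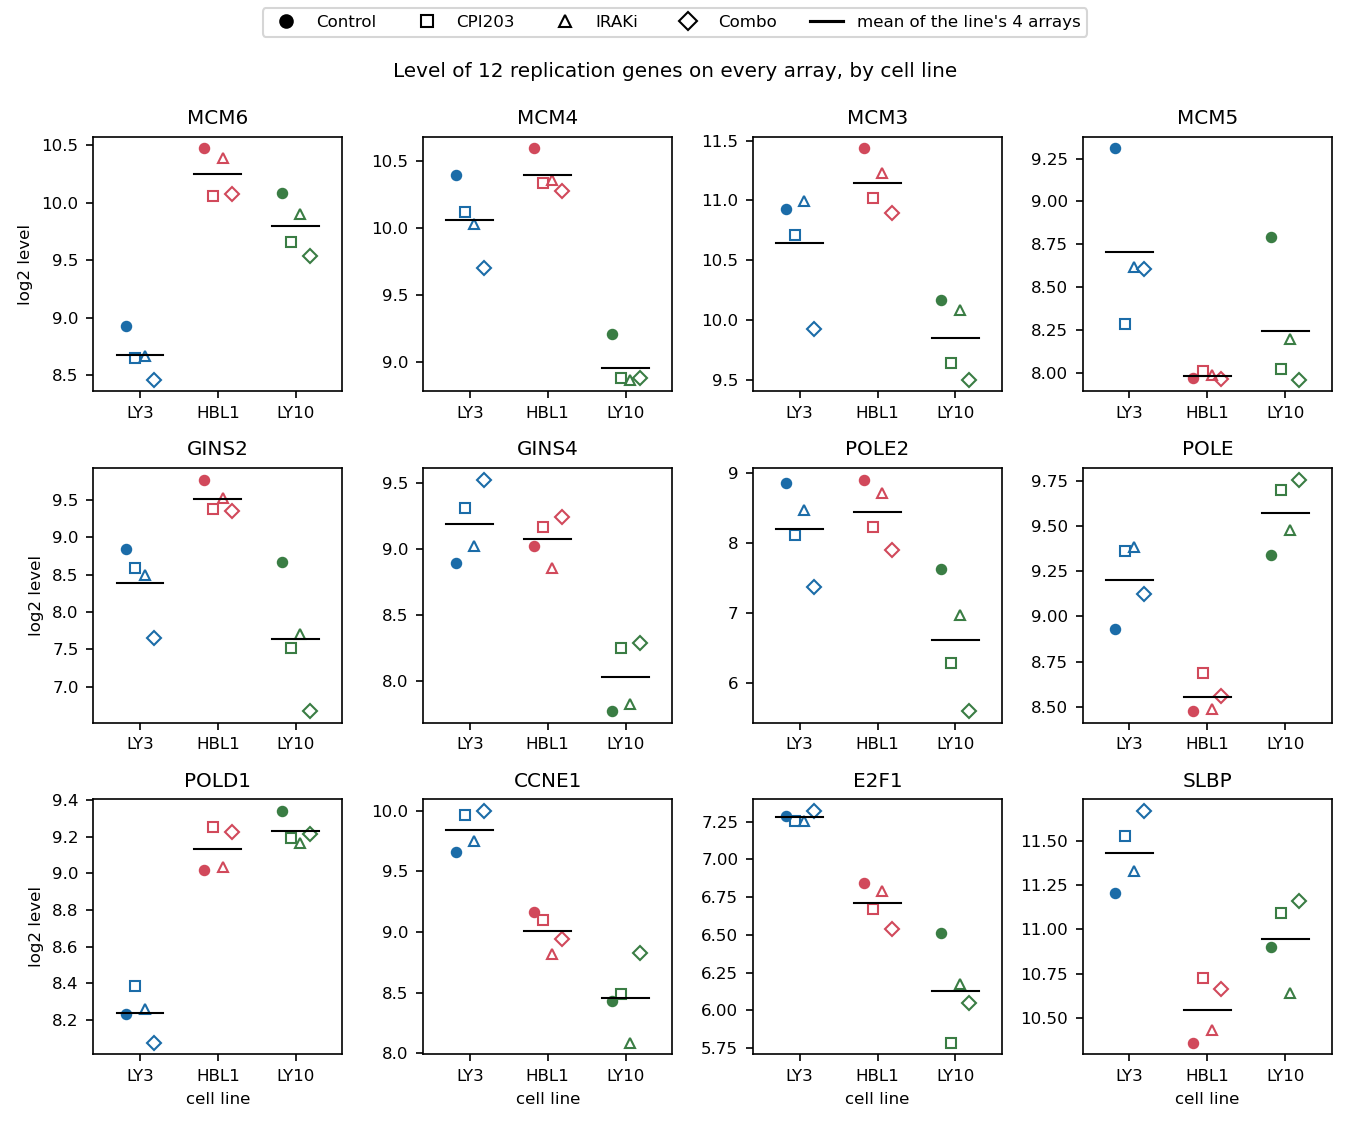
The 12 panels show the log2 level of 12 members on all 12 arrays, with the line on the horizontal axis, a symbol for each treatment and a bar at the mean of the line's 4 arrays. Each panel has its own vertical range. MCM6 lies at 8.46 to 8.93 in OCI-LY3 and from 9.54 upwards in the other lines, while MCM4 lies at 8.87 to 9.21 in OCI-LY10 and from 9.70 upwards in the others, and MCM5 in OCI-HBL1 shows 4 arrays within 7.96 to 8.01.

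Within single lines the size of the Combo change varied. Of the 47 members 25 were below their Control in all 3 lines and 8 above it in all 3, and the called members are among these, as a call in this fit favours genes that moved one way. How many of all genes tested moved one way in all 3 lines was not counted. Over all 47 the median change was -0.329 in OCI-LY10, -0.285 in OCI-LY3 and -0.209 in OCI-HBL1. Among the called members OCI-HBL1 had the smallest change in 15 of the 20 and in 3 of the 4, with a median of -0.46 over the 20, where OCI-LY3 had -0.78 and OCI-LY10 -0.69. The exceptions included POLD3 and RFC3, which fell most in OCI-HBL1. These are single arrays against single arrays, and the difference between lines was not tested. The same counts over all called genes were not made, so they do not set the members apart from other genes. The spike-ins read 10.569 in Control and 11.303 in Combo in OCI-LY3, 10.488 and 10.704 in OCI-HBL1, and 10.717 and 11.219 in OCI-LY10. The part of this in the sizes of change was not tested.

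Other genes around the fork were counted in 4 lists assembled with earlier results of these data known. Of 30 other replication factors 3 rose and 8 fell in Combo, and 1 rose and 4 fell with CPI203, or 36.7% and 16.7%, near the 32.1% and 13.1% of all genes called. TIPIN, of the fork protection complex, fell by 1.39 ± 0.13 and the ribonuclease H2 subunit RNASEH2B by 1.04 ± 0.19. The polymerase delta subunit POLD4 fell by 0.75 ± 0.25 and the chromatin remodeller HELLS by 0.69 ± 0.20. The 3 that rose in Combo were ASF1B (0.53 ± 0.15), GMNN (0.454 ± 0.12) and ORC4 (0.435 ± 0.13). Of 26 genes of the E2F and RB families and G1/S kinases 3 rose and 11 fell in Combo, and 1 rose and 5 fell with CPI203, or 53.8% and 23.1%. E2F2 fell by 1.53 ± 0.26, cyclin D2 (CCND2) by 1.16 ± 0.27 and its kinase CDK4 by 0.91 ± 0.13, while FBXW7, a ubiquitin ligase subunit that recognises cyclin E, rose by 0.94 ± 0.14. None of the 7 tested genes of deoxynucleotide supply (of 8 listed) was called with CPI203 or Combo. Of 9 checkpoint genes CHEK1 fell by 0.69 ± 0.10 and RAD9A rose by 0.59 ± 0.14 in Combo, or 22.2% called. No gene of the 4 lists was called with IRAKi, where 0.168% of all genes were. MYC, a transcription factor that drives cell growth, stood at -0.57 ± 0.21 with CPI203 (adjusted p = 0.11) and fell by 1.60 ± 0.21 with Combo (adjusted p = 0.000593).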

How the data were processed

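Total RNA (150 ng a sample) from 3 cell lines under 4 treatments was measured on 12 Affymetrix arrays, with no repeat of a line within a treatment. The deposited values are log2 levels that the authors made with RMA in Affymetrix Expression Console 1.1, per the submitters' processing notes. RMA normalizes the arrays to a common distribution, so a shift shared by most genes is removed. The probe library and genome build behind these values are not stated, that is, not given in the sources used here.

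Of 49386 probe sets, 45253 carried 1 gene and 1327 several, and only the former were used, each gene by the set with the highest mean. A gene was tested if above the 40th percentile of all values (log2 4.20) in at least 3 arrays. One limma 3.58.1 fit (R 4.3.3, with data.table in version 1.17.8) held treatment and cell line as terms, with 6 residual and 3.66 prior degrees of freedom. Samples with a replicate number in common come from the same line, which pairs them. Tests were two-sided with Benjamini-Hochberg adjustment over 13120 genes, the test script was tested on simulated data, and the number of arrays limits the precision.

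The members and lists were chosen with earlier results of these data known. Members given on every array were the 8 largest falls, the 4 largest rises, MCM2 to MCM7, PCNA, SLBP, CCNE1, CCNE2 and E2F1. Other genes named are up to 4 called genes of each companion list by size of change in Combo, the other replication factors that rose, and MYC. Promoter windows came from RefSeq (GRCh38.p14). Figures were drawn with matplotlib 3.10.9 in Python 3.11.15. Each result was recomputed with probe sets averaged per gene, no filter or one at the 60th percentile, median centring, cyclic loess, spike-in scaling, array weights, a trended and robust eBayes, no replicate block, a random replicate block, only the groups compared, a limit of 1.5-fold, leaving out each line, and leaving out the OCI-LY10 IRAKi array.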

Additional observations from a re-analysis of the deposited data

How the results depend on the processing

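The members called in CPI203 against Control, 8 as reported, were 14 under poly-A spike-in scaling, 16 with trend and robust estimation, 16 with array weights, 0 with no replicate block, 4 with only the groups compared and 2 at 1.5-fold or more. The share of all genes called, 13.1% as reported, was 13.4%, 17.2%, 19.1%, 0.0305%, 9.1% and 9.32% under those alternatives. Leaving out a line gave 0 to 3 (1.65% to 5.49% of all genes), and leaving out the OCI-LY10 IRAKi array 6 (12%). In Combo against Control the 24 became 3 with no replicate block (GINS1, GINS3 and ORC6), 9 with only the groups compared and 14 at 1.5-fold or more, where 3.54%, 16.5% and 22.5% of all genes were called against 32.1%, and leaving out a line gave 8 to 22 (15.8% to 26.1%). For Combo against IRAKi the 16 became 0 with no replicate block, 4 with only the groups compared, 7 at 1.5-fold or more and 8 without the OCI-LY10 IRAKi array, and leaving out a line gave 1 to 13, with 0.0534%, 7.45%, 13.1%, 11.3% and 4.01% to 13% of all genes against 18.7%. The single call in Combo against CPI203 was lost (0) under median centring, spike-in scaling, no replicate block, only the groups compared, 1.5-fold or more and each left-out line, and array weights gave 2, while the share of all genes, 4.66% as reported, was 4.92%, 3.16%, 0.0152%, 1.51%, 3.86%, 0 to 0.0229% and 6.14%. Between lines, a limit of 1.5-fold gave 15 for OCI-LY3 against OCI-HBL1, 11 for OCI-LY10 against OCI-HBL1 and 19 for OCI-LY3 against OCI-LY10, with 31.2%, 32.3% and 30% of all genes, and without the third line the counts were 23, 27 and 33, with 45.1%, 45.3% and 45.4%. IRAKi against Control and the interaction term had 0 calls in every alternative run, and the interaction was not refitted with only the groups compared. The sign turned for RFC3 with CPI203 (0.039) and POLD3 in OCI-LY3 against OCI-HBL1 (-0.023) with probe sets averaged per gene, and for GINS4 (-0.025) and SLBP (-0.143) in Combo and CDC6 in OCI-LY10 against OCI-HBL1 (-0.011) under spike-in scaling. The cause of these differences was not tested, except that fits with fewer lines, fewer groups or a size limit hold fewer arrays or members by construction. With 3 lines a group, the smallest member change that this fit called in Combo was that of SLBP, 0.34 on the log2 scale.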

Other observations

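The members' other probe sets were read as a second measurement of the same RNA. Of the 24 genes called in Combo, 18 have more than 1 probe set, and 44 of their 46 other sets above the filter level on all arrays changed in the called direction (values without a test). The exceptions were a GINS4 set at -0.16 and an RFC3 set at 0.57, which stood at 1.08 with CPI203. A second POLA2 set stood at -0.38 in CPI203, -1.18 in IRAKi and -1.51 in Combo against Control, where the set used for the gene changed by -0.38 with IRAKi. The other 2 MCM6 sets stood at -0.02 and -0.46 in Combo. Only direction was counted, so MCM6 at -0.02 and a CDC7 set at -0.05 are among the 44. The same count over all called genes was not made. POLE2, GINS2, GINS3, PRIM1, RFC2 and ORC6 have no other set, so the count does not cover them. Sets of a gene were read on the same arrays and are not independent. With probe sets averaged per gene 20 of the 24 members were still called, where 31.7% of all genes were called.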
